A study of Sorghum bicolor with 24 samples.

Results

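The 4 genes described here are listed in the deposited tables as Sobic.004G304300.v3.2, named after salutaridine reductase, Sobic.010G117900.v3.2 (probable aldo-keto reductase 3), Sobic.010G084400.v3.2 (12-oxophytodienoate reductase 1) and Sobic.005G055300.v3.2 (a tropinone reductase homolog), and are written below without the version. They were selected on the counts of the GR245DS experiment, out of 35842 genes listed for the GR245DS experiment and 35907 for the phosphorus experiment, for being much higher in roots given GR245DS than in mock roots. The increase with GR245DS is therefore the reason for their choice, and it is described below without a test. All 4 were found in both tables.

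RNA was sequenced from roots of Sorghum bicolor in 24 libraries, as 8 groups of 3. In the first experiment, roots labelled phosphorus deficiency were compared with mock roots at days 4 and 7. In the second, roots given GR245DS, a synthetic strigolactone analogue, were compared with mock roots at 3 h and 6 h. The cultivar, the plants' age, the dose of GR245DS, the phosphate supply and whether replicates are separate plants are not stated in the labels, so p-values measure the spread between these libraries, which may be technical.

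Strigolactones are carotenoid-derived hormones that shape shoot branching and root growth, and roots release them into the soil, where they act on fungi and on parasitic plants. The 4 genes encode reductases of 3 enzyme superfamilies that use NADPH to reduce carbonyl groups or the double bonds beside them. Salutaridine reductase of opium poppy makes salutaridinol on the way to morphine, menthol dehydrogenases of mint interconvert menthone and menthols, and tropinone reductases of nightshades act in tropane alkaloid synthesis, and all of these belong to the short-chain dehydrogenases. Aldo-keto reductases reduce aldehydes and ketones, among them reactive products of lipid breakdown. The 12-oxophytodienoate reductases are flavin enzymes, of which the peroxisomal kind makes jasmonate and the OPR1 kind accepts other unsaturated carbonyl compounds. A name taken from the best protein match does not show the substrate of the sorghum enzyme. The deposited protein domains were a short chain dehydrogenase for Sobic.004G304300, an aldo/keto reductase domain for Sobic.010G117900, an NADH:flavin oxidoreductase domain for Sobic.010G084400 and an enoyl reductase domain for Sobic.005G055300. For Sobic.010G117900 the pathway column alone named an unrelated enzyme, a peptide-N-glycanase.

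Total counts ran from 31677623 to 38706195 per library in the GR245DS experiment and from 32631226 to 45292506 in the phosphorus experiment. In the libraries labelled phosphorus deficiency, 7 of 9 genes with an SPX domain name, which phosphate shortage usually raises, were lower than in mock and 1 was higher at each day, so the label is kept here only as a label. In the GR245DS experiment the third replicate of every group stood apart. There the summed level of 26 genes named after root proteins was 124 to 233 CPM in the third replicates and 492 to 1250 CPM in the others, and that of 16 leaf marker genes was 614 to 991 CPM against 233 to 462 CPM. Of these lists, 2 root marker genes (both resorcinol O-methyltransferases) and 1 leaf marker gene (a chlorophyll a-b binding protein) had 0 counts in all 12 libraries. In the phosphorus experiment the leaf markers summed to 6.93 to 19.1 CPM. What these marker levels contribute to the results below was not tested. CPM are counts scaled to a common library total.

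All 4 genes were nearly silent in mock roots and were between 5.08 and 264 CPM with GR245DS at 3 h. Sobic.004G304300 had 565, 3069 and 192 counts in replicates 1, 2 and 3 at 3 h with GR245DS, or 16.4, 83.9 and 5.80 CPM. In the mock libraries of that time it had 0, 6 and 0 counts. The groups did not overlap, and the mean was 35.4 ± 42.4 CPM (SD, n = 3) against 0.0522 ± 0.0904 CPM, a ratio of 678 that rests on 6 mock counts. The tropinone reductase homolog Sobic.005G055300 had 1063, 3786 and 168 counts with GR245DS, or 30.9, 104 and 5.08 CPM. Its mock libraries had 16, 0 and 0 counts. Every treated library exceeded every mock library, and the means of 46.5 ± 51.0 and 0.148 ± 0.256 CPM (SD, n = 3) differed 314-fold.

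The aldo-keto reductase gene Sobic.010G117900 had the highest count of the 4, with 2854, 9648 and 750 counts at 3 h with GR245DS, or 82.9, 264 and 22.7 CPM. Mock libraries had 20, 27 and 6 counts. Its groups were also apart, with means of 123 ± 125 and 0.473 ± 0.282 CPM (SD, n = 3), a ratio of 260. Sobic.010G084400, the oxophytodienoate reductase gene, had 1397, 2958 and 654 counts, or 40.6, 80.9 and 19.8 CPM. Its mock libraries had 5, 20 and 5 counts. Here the treated libraries spanned the narrowest range of the 4 genes, the highest being 4.09 times the lowest, and the means of 47.1 ± 31.1 and 0.265 ± 0.223 CPM (SD, n = 3) differed 178-fold. Single libraries moved these ratios at 3 h. Without treated replicate 2 they were 213 for Sobic.004G304300, 111 for Sobic.010G117900, 114 for Sobic.010G084400 and 121 for Sobic.005G055300. Without mock replicate 2 that of Sobic.010G084400 was 346. For Sobic.004G304300 without mock replicate 2 and Sobic.005G055300 without mock replicate 1, the remaining mock libraries had 0 counts. Only rough lower bounds exist there, of at least 419 and at least 570, taking 3 counts for each remaining mock library. That limit takes each count as an independent fragment, which may not hold here, and used library totals without TMM factors.

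At 6 h the 4 genes were still far above mock. Sobic.004G304300 had 461, 1356 and 691 counts with GR245DS and 6, 0 and 3 in mock. Sobic.010G117900 had 1877, 4693 and 1773 counts with GR245DS and 96, 19 and 15 in mock. The mean of the aldo-keto reductase was then 85.0 ± 48.8 CPM against 1.27 ± 1.32 CPM in mock (SD, n = 3), and that of the salutaridine reductase-like gene 25.4 ± 13.5 against 0.0887 ± 0.0873 CPM. Sobic.010G084400 had 370, 991 and 665 counts with GR245DS and 34, 8 and 14 in mock. Sobic.005G055300 had 426, 1523 and 456 counts with GR245DS and 10, 8 and 4 in mock. Groups did not overlap for any of the 4 genes at either time, where 6.54% of all tested genes had every treated library above every mock library at 3 h and 7.2% at 6 h. The ratios of means at 6 h were 287 for Sobic.004G304300, 67.1 for Sobic.010G117900, 37.3 for Sobic.010G084400 and 113 for Sobic.005G055300. Replicate 1 was the highest mock library at 6 h for each of the 4 genes, and without it the ratios of the first 3 of these became 556, 168 and 62.2. Without mock replicate 2 that of Sobic.004G304300 was 191, and without treated replicate 2 that of Sobic.005G055300 was 63.8.

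**Figure D1:**
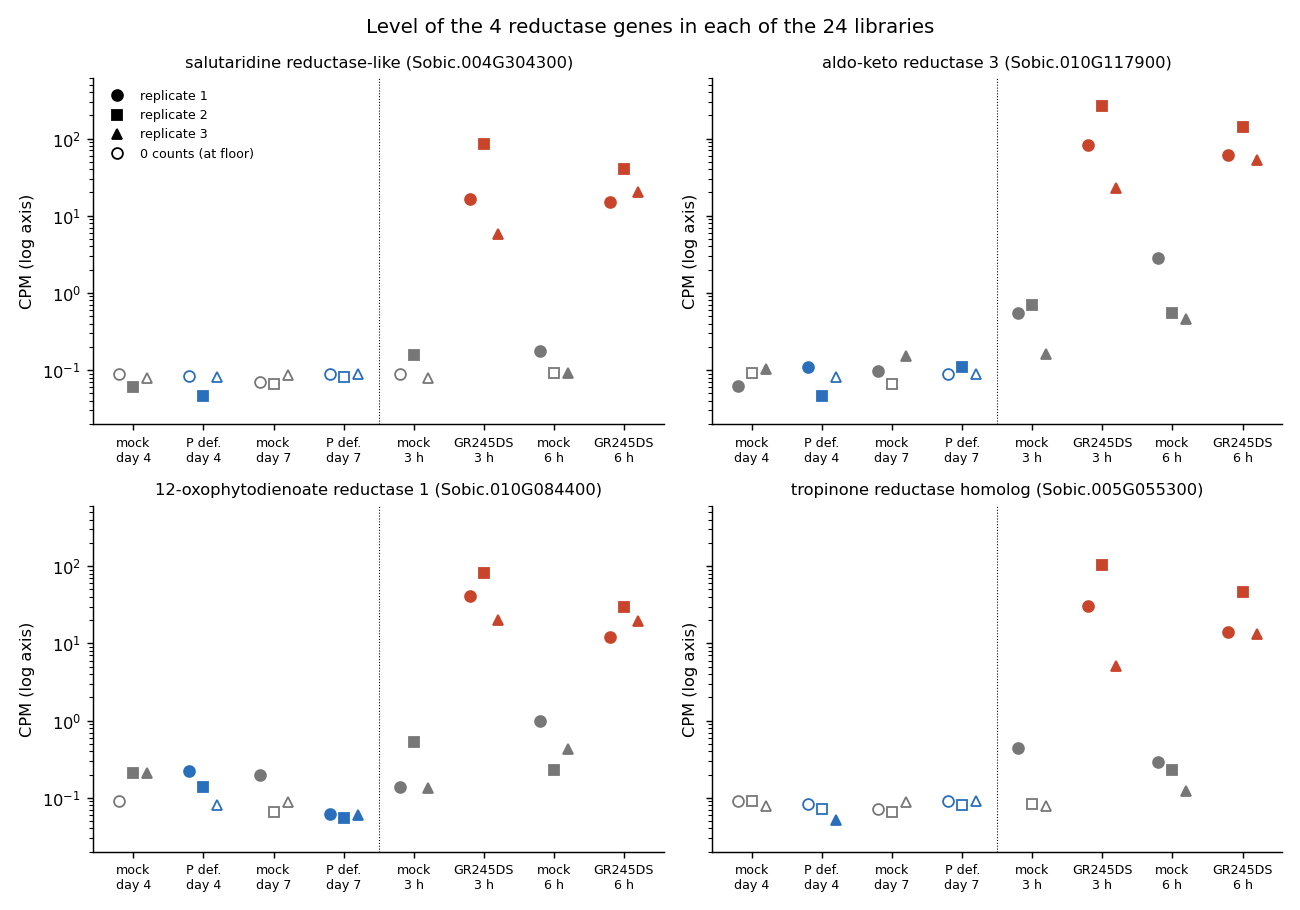
Level of each of the 4 reductase genes in the 24 libraries, as CPM on a log axis, with mock in grey, libraries labelled phosphorus deficiency in blue and GR245DS in red. Open symbols are libraries with 0 counts, drawn at the CPM that 3 counts would give, and the GR245DS libraries lie between 5.08 and 264 CPM, above every other library of the same gene.

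Ranked by fitted log2 fold change among 24814 genes, the 4 genes took places 2, 5, 8 and 4 at 3 h and 2, 10, 16 and 7 at 6 h, in the order Sobic.004G304300, Sobic.010G117900, Sobic.010G084400 and Sobic.005G055300. High places follow from the choice of these genes on the same counts and are given only as description. In the authors' deposited table the log2 fold changes of the same genes were far smaller than the log2 ratios of the deposited counts, and how they were estimated, with or without shrinkage, is not stated, so they are not on the scale of the ratios above. At 6 h the authors' deposited table gave 3.11, 1.85, 2.49 and 2.64 in the same order. At 3 h the authors' deposited table gave 1.84 for Sobic.010G117900 and 2.74 for Sobic.010G084400. For Sobic.004G304300 it gave 0.316 with an adjusted p of 0.847 (authors' deposited table, 3 h), and for Sobic.005G055300 it gave 0.210 with an adjusted p of 0.998 (authors' deposited table, 3 h). The counts of those genes at 3 h are the ones given above, with the widest spread between treated replicates of the 4.

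The order of the levels was compared between genes with the authors' FPKM, which are per length of transcript. In GR245DS roots at 3 h the aldo-keto reductase gene was highest at 73.2 ± 74.7 FPKM (SD, n = 3), followed by the tropinone reductase homolog at 35.7 ± 39.2, the salutaridine reductase-like gene at 25.8 ± 31.0 and the oxophytodienoate reductase at 25.7 ± 17.0 FPKM. At 6 h the order was the same, with 51.5 ± 30, 19.1 ± 14.6, 18.9 ± 10.2 and 11.4 ± 5.01 FPKM (SD, n = 3). Neighbours in this order differed by less than the larger of their SDs in both groups, apart from the step from the aldo-keto reductase to the tropinone reductase homolog at 6 h. Mock roots of this experiment held 0.0375 to 0.310 FPKM at 3 h and 0.0572 to 0.809 FPKM at 6 h, again highest for the aldo-keto reductase.

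Between 3 h and 6 h of GR245DS the mean CPM of each gene was lower, by a factor of 1.39 for Sobic.004G304300, 1.45 for Sobic.010G117900, 1.90 for Sobic.005G055300 and 2.29 for Sobic.010G084400. The ranges at the 2 times overlapped for every gene. Set against the library of the same number, 6 h was lower than 3 h for all 4 genes in replicates 1 and 2. In replicate 3 the level at 6 h was 3.5, 2.30 and 2.64 times that at 3 h for Sobic.004G304300, Sobic.010G117900 and Sobic.005G055300, and 0.988 times for Sobic.010G084400. No time course is read from these values.

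At 3 h the treated libraries had the same order for every gene. Replicate 2 was highest and replicate 3 lowest, and replicate 2 exceeded replicate 3 by 14.5 times for Sobic.004G304300, 11.6 times for Sobic.010G117900, 4.09 times for Sobic.010G084400 and 20.4 times for Sobic.005G055300. Of 243 other genes called higher at 3 h, 137 (56.4%) had the same order, and over the 243 genes the median ratio of replicate 2 to replicate 3 was 1.52. Replicate 3 at 3 h was also the library with the lowest root marker sum (124 CPM), against 696 and 890 CPM in replicates 1 and 2, and had 761 CPM of leaf markers against 275 and 319 CPM. Whether the lower share of root transcripts and the lower reductase levels in it are linked was not tested, and in bulk RNA fewer cells of a type and less RNA per cell cannot be told apart. At 6 h replicate 2 was again highest for all 4 genes, at 1.53 to 3.42 times replicate 3. Replicate 1 was then lowest for Sobic.004G304300 and Sobic.010G084400 and replicate 3 for Sobic.010G117900 and Sobic.005G055300, while the root marker sum was 1250, 1130 and 233 CPM in replicates 1, 2 and 3. Without the third replicates of both groups the ratios at 3 h were 640, 275, 184 and 302, and those at 6 h were 321, 60.7, 34.4 and 114, in the order Sobic.004G304300, Sobic.010G117900, Sobic.010G084400 and Sobic.005G055300.

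**Figure D2:**
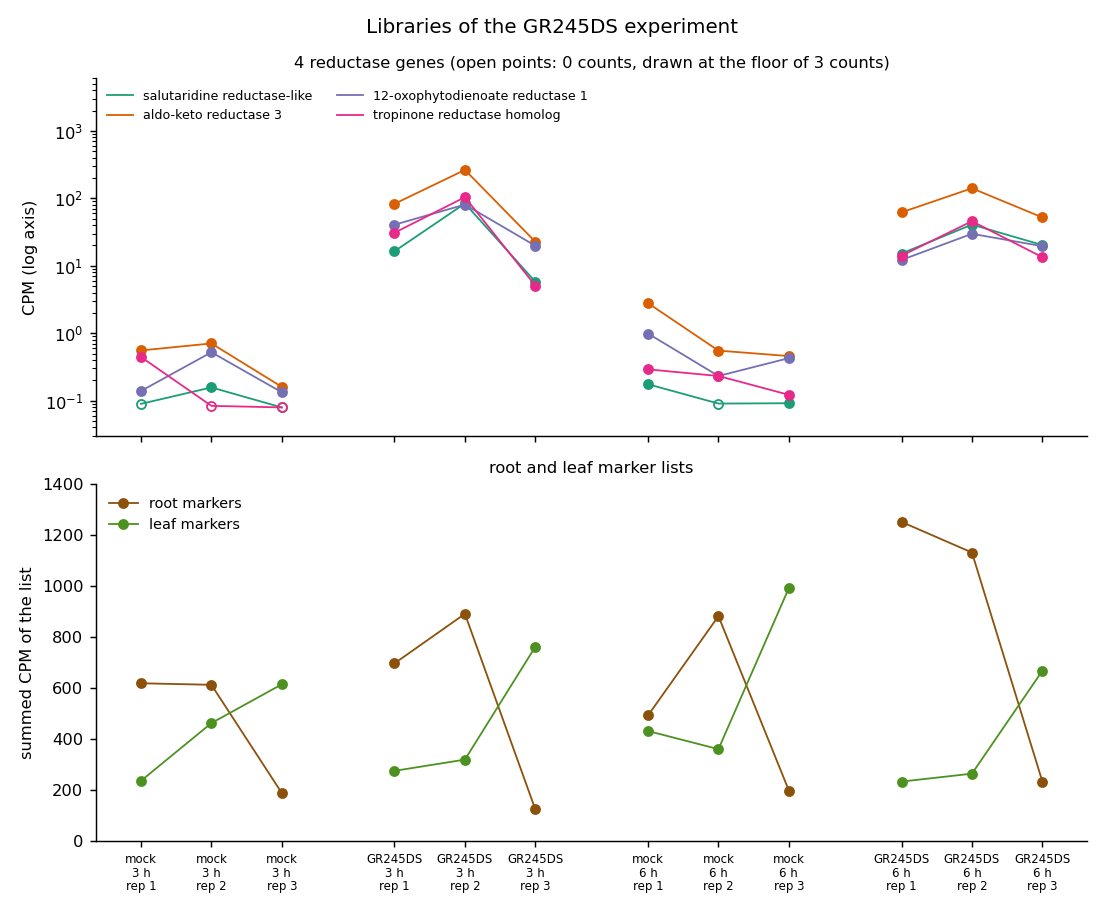
CPM of the 4 reductase genes on a log axis (upper panel) and summed CPM of the root and leaf marker lists (lower panel) in each of the 12 libraries of the GR245DS experiment, with lines joining the replicates of a group only to guide the eye. At 3 h with GR245DS all 4 genes are highest in replicate 2 and lowest in replicate 3, where the root marker sum is 124 CPM and the leaf marker sum 761 CPM.

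In the phosphorus experiment, which the choice of the genes did not use, the 4 genes were at or near 0 throughout. Of 48 values, 30 were 0 counts, and the largest was 8 counts, or 0.219 CPM. Sobic.005G055300 had 2 counts in replicate 3 of the roots labelled phosphorus deficiency at day 4 and 0 in the other 11 libraries. Sobic.004G304300 had 2 counts in replicate 2 of that group and 2 in replicate 2 of mock at day 4, and 0 elsewhere. Neither gene was detected at day 7, where a count of 0 allows up to 3 counts, which is 0.0662 to 0.0919 CPM over the 12 libraries. These limits cover counting error only, and only if each count is an independent fragment.

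Sobic.010G117900 had 2, 0 and 4 counts in mock and 4, 2 and 0 in roots labelled phosphorus deficiency at day 4. At day 7 it had 4, 0 and 5 counts in mock and 0, 4 and 0 in the other group. Sobic.010G084400 had 0, 7 and 8 counts in mock and 8, 6 and 0 with the label at day 4, and 8, 0 and 0 against 2, 2 and 2 at day 7. The groups overlapped for both genes at both days. None of the 4 genes passed the filter on low counts in this experiment, so 0 of 4 were tested, while 20.3% of the tested genes were higher and 18.4% lower with the label at day 4, and 17.4% and 18.2% at day 7. Without the filter, edgeR's quasi-likelihood test gave unadjusted p of 0.314 to 1 and adjusted p of 0.472 to 1 for the 4 genes in the comparisons of the label with mock. Over 20 such tests, which add the response at day 7 against day 4 and the change with time within each treatment, 0 had an unadjusted p below 0.05. Comparisons of Sobic.004G304300 and Sobic.005G055300 at day 7, and of Sobic.005G055300 between the days in mock, had 0 counts on both sides. Those tests could give no call. At these counts a difference between the groups was not detectable. The mock roots of the GR245DS experiment held up to 96 counts of these genes, but the experiments were normalised separately.

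The genes most like each member over all 24 libraries were found by Pearson's correlation of log2(CPM + 1), centred within each experiment, among 20371 genes with at least 1 CPM in a group of each experiment. That limit left out genes as low in the phosphorus experiment as the 4 reductases are. Among those left out were Sobic.010G084700 and Sobic.010G084600, described below, with group means there of at most 0.646 and 0.335 CPM. The 4 reductase genes correlated with each other at 0.966 to 0.989, with Spearman's rho of 0.882 to 0.937. Outside them, Sobic.001G319500, named glutathione S-transferase U17, was among the 3 most similar for each of the 4 genes, with r of 0.955 to 0.983. Its mean was 1300 CPM at 3 h and 1150 CPM at 6 h with GR245DS, against 6.17 and 9.33 CPM in mock. Plant glutathione transferases of this class join glutathione to foreign and reactive compounds.

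Sobic.003G047500, a UDP-glycosyltransferase 73C3 by name, was among the 3 most similar for 3 of the genes (r of 0.958 to 0.976) and had 64.2 and 52.9 CPM with GR245DS against 2.53 and 3.26 CPM in mock. Sobic.004G304100, a salutaridine reductase by name, was among them for 3 genes (r of 0.969 to 0.974), and the glutathione transferase Sobic.001G066000 for 2 (r of 0.967 and 0.975). With rho in place of r these genes took places 3 to 84. Such correlations mostly restate that all of these genes were high in the same 6 libraries. Within those libraries the marker sums differed, as given above.

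Neighbours in gene order gave a feature that the choice did not use. The symbols in the deposited annotation tied all 4 genes to the RefSeq annotation of assembly Sorghum_bicolor_NCBIv3, used here only for the order of genes. Sobic.004G304300 is the fourth of 5 consecutive genes named salutaridine reductase, from Sobic.004G304000 to Sobic.004G304400, and Sobic.004G304625, too low to be tested, lies 4 places after it. Sobic.010G084400 is flanked by oxophytodienoate reductase genes on both sides, Sobic.010G084300 before it and Sobic.010G084600 and Sobic.010G084700 after it, with Sobic.010G084100 3 places before. Within 5 places on either side of the aldo-keto reductase and the tropinone reductase homolog, no gene that could be matched to the deposited annotation was of their family, and 1 protein-coding neighbour of each could not be matched.

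Several of these neighbours were also higher with GR245DS. Sobic.004G304100 had 132, 433 and 35.0 CPM in replicates 1, 2 and 3 at 3 h with GR245DS and 3.17, 4.99 and 5.38 CPM in mock. Its log2 fold change was 5.47 ± 0.95 (SE) with an adjusted p of 0.0197 by edgeR's quasi-likelihood test. At 6 h it was 4.89 ± 0.92 with an adjusted p of 0.0522, or 0.00835 with the replicate number as a block. Sobic.004G304400 had 108, 88.5 and 36.1 CPM against 16.1, 11.8 and 12.4 CPM in mock at 3 h. It rose less, by 2.53 ± 0.43 on the log2 scale (adjusted p of 0.0169, edgeR), and with GR245DS replicate 1 was above replicate 2. Both of these 3 h calls were lost when any of the mock libraries was left out, with adjusted p of 0.0505 to 0.107 by edgeR, and that of Sobic.004G304400 also without treated replicate 1 or 2 (adjusted p of 0.0708 and 0.0661, edgeR). Sobic.004G304000, the first gene of the run, had 7.11, 35.0 and 0.363 CPM against 0.167, 0.0522 and 0.0533 CPM, and its adjusted p was 0.165 by edgeR and 0.0353 with the block. Sobic.004G303800, numbered shortly before it and in the list of salutaridine and menthol reductases below, was not matched to a place in the gene order. Its log2 fold change was 6.3 at 3 h and 3.8 at 6 h (adjusted p of 0.11 and 0.554, edgeR). Sobic.004G304200, directly before Sobic.004G304300, stayed at 0.322 ± 0.319 CPM with GR245DS and 0.074 ± 0.128 CPM in mock (SD, n = 3), with overlapping groups.

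In the other run, Sobic.010G084700 had 251, 244 and 42.2 CPM at 3 h with GR245DS and 4.47, 3.37 and 3.70 CPM in mock. Its log2 fold change was 5.54 ± 0.82 (SE; adjusted p of 0.00819, edgeR), which missed the threshold without mock replicate 2 or 3 (adjusted p of 0.0602 and 0.0575, edgeR). Sobic.010G084600 had 53.8, 53.9 and 7.76 CPM against 0.722, 0.418 and 0.293 CPM, a log2 fold change of 6.33 ± 1.04 (adjusted p of 0.0153, edgeR). That call was lost without any of the mock libraries (adjusted p of 0.0574 to 0.0953, edgeR). At 6 h every treated library of both genes was again above every mock library, at 96.1 ± 9.91 and 18.4 ± 0.65 CPM against 5.95 ± 5.70 and 1.59 ± 1.97 CPM (SD, n = 3), with adjusted p of 0.0555 and 0.225 by edgeR and 0.00840 and 0.0224 with the block. Sobic.010G084300 was already expressed in mock at 17.1 ± 5.39 CPM and had 40.4 ± 16.3 CPM with GR245DS at 3 h (SD, n = 3; adjusted p of 0.275, edgeR, or 0.0128 with the block). Sobic.010G084100 had 3.98 ± 3.73 against 0.445 ± 0.317 CPM (SD, n = 3), with overlapping groups. Genes of such runs can be near-identical, and the labels do not say how reads that match several copies were counted, so the division of counts within each run is uncertain.

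**Figure D3:**
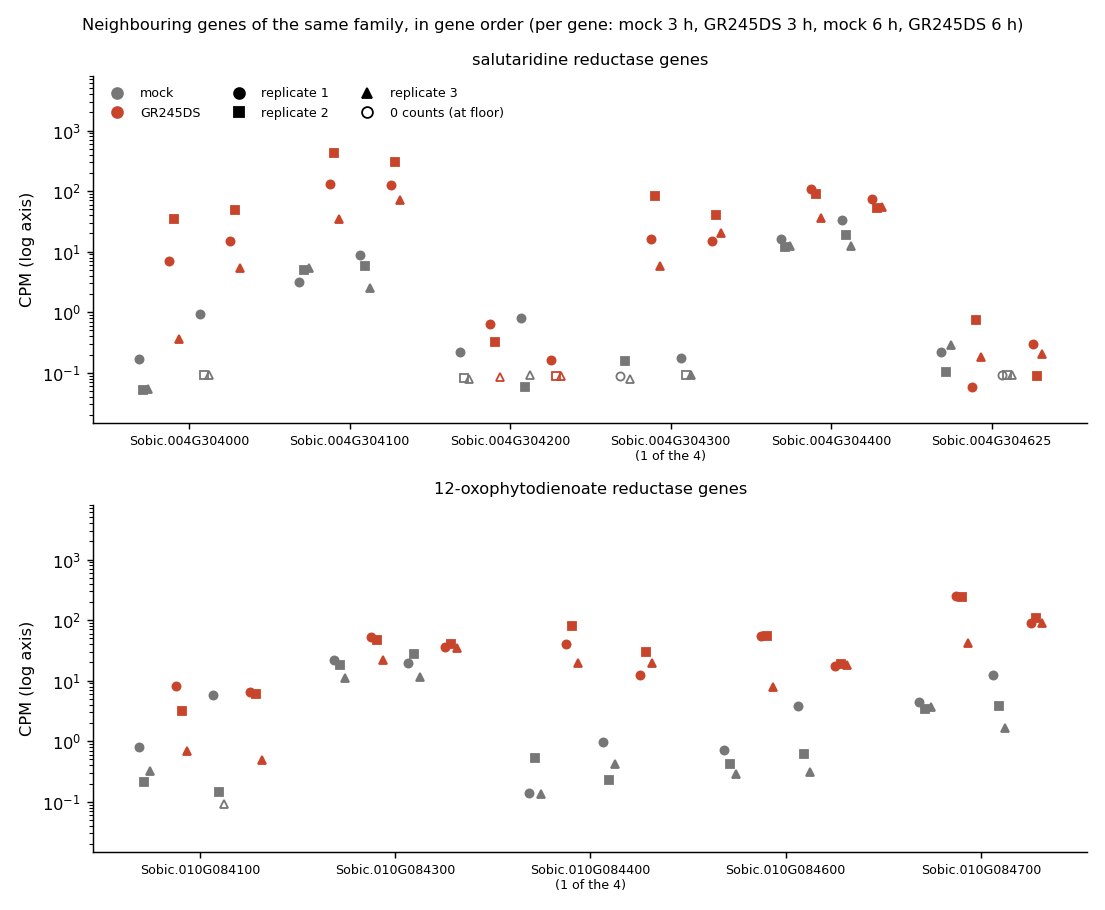
CPM on a log axis of the neighbouring salutaridine reductase genes (upper panel) and 12-oxophytodienoate reductase genes (lower panel) in gene order, each gene with its mock and GR245DS libraries at 3 h and then at 6 h. Treated and mock libraries overlap for Sobic.004G304200 and Sobic.010G084100 and are fully separate for Sobic.004G304100, Sobic.010G084600 and Sobic.010G084700.

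The wider families were read from gene names, with the 4 genes themselves left out. Of 71 tested relatives in the 4 families, 11 rose and 0 fell with GR245DS at 3 h, where 0.995% of all tested genes were called higher and 0.0121% lower. With the replicate number as a block 16 rose, where 634 of all 24814 tested genes were called higher. With the third replicates left out 14 rose, where 350 of 24965 genes were called higher. The count fell to 5, 5 and 4 without mock replicate 1, 2 or 3. In those fits 157 of 25194, 122 of 25199 and 160 of 25215 genes were called higher. At 6 h 6 relatives rose and 0 fell, against 0.480% and 0.00403% of all genes. With the block 15 rose at 6 h, where 380 of all 24814 tested genes were called higher. Without a library at 6 h the count was 1 to 5, the lowest without mock replicate 2 or 3, and 3 without treated replicate 1 or 2. Of all genes, 52 of 25196 and 59 of 25260 were called higher without mock replicate 2 or 3. Without treated replicate 1 or 2 these were 75 of 25243 and 64 of 25241. The median log2 fold change of the relatives was 0.16 at 3 h and 0.19 at 6 h, beside -0.02 and -0.03 over all genes. By edgeR, 22 and 20 of the 71 had an unadjusted p below 0.05. The share of all genes below that unadjusted limit is not given. Such counts, here and for the single lists below, are therefore description only.

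Among aldo-keto reductases 5 of 31 tested genes rose at 3 h and 4 at 6 h (7 and 6 with the block). Sobic.010G019900, a probable aldo-keto reductase 2, went from 43.4 ± 11.1 CPM in mock to 997 ± 652 CPM with GR245DS at 3 h (SD, n = 3; log2 fold change 4.52 ± 0.56, adjusted p of 0.00328, edgeR). At 6 h it had 700 ± 155 against 50.6 ± 20.5 CPM (adjusted p of 0.0115, edgeR, and 0.0585 and 0.0562 without mock replicate 2 or 3). Sobic.003G355500, of the plant family 4C of these enzymes, rose 4.68-fold at 3 h and 5.93-fold at 6 h with a small spread, from 78.6 ± 12.5 to 368 ± 48.2 CPM and from 62.8 ± 3.28 to 372 ± 59.7 CPM (SD, n = 3; adjusted p of 0.000433 and 0.000449, edgeR). Other genes that rose at 3 h were Sobic.006G096400, named after deoxymugineic acid synthase, Sobic.003G355600 and Sobic.005G008301. The 3 h calls of Sobic.003G355600 and Sobic.005G008301 were lost without any of the mock libraries, and that of Sobic.003G355600 also without treated replicate 1 or 3 (adjusted p of 0.0568 to 0.163, edgeR).

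Of 12 oxophytodienoate reductase genes 4 rose at 3 h and 2 at 6 h (5 and 5 with the block), and the median log2 fold change of the list was 1.04 and 0.80. The 4 include the neighbours Sobic.010G084600 and Sobic.010G084700, whose share of the counts in their run is uncertain. Sobic.009G003600 rose from 1.75 ± 0.445 to 9.72 ± 3.80 CPM at 3 h and from 2.12 ± 0.459 to 10.6 ± 2.72 CPM at 6 h (SD, n = 3; adjusted p of 0.00525 and 0.0120, edgeR). Its 6 h call was lost without mock replicate 2 or 3 (adjusted p of 0.0758 and 0.0740, edgeR), and its 3 h call when only the groups compared were fitted (adjusted p of 0.0554, edgeR). Sobic.006G091700 rose at 3 h (adjusted p of 0.0396, edgeR, and 0.128 to 0.155 without treated replicate 1 or 2 or mock replicate 1 or 3). It had 84.5 ± 2.70 against 13.3 ± 4.92 CPM at 6 h (SD, n = 3; adjusted p of 0.0452, edgeR), a call lost on leaving out any library, with adjusted p of 0.108 to 0.186 by edgeR, and 0.00247 with the block. Sobic.007G151100, named OPR7 after the rice enzyme of jasmonate synthesis and chosen here after its values were seen, had 74.7 ± 15.7 against 65.6 ± 3.23 CPM at 3 h (SD, n = 3). The 95% interval of its log2 fold change was -0.17 to 0.55 at both times.

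Salutaridine and menthol reductases had 2 of 20 genes higher at 3 h, the neighbours Sobic.004G304100 and Sobic.004G304400 described above, and 0 at 6 h, where 7 had an unadjusted p below 0.05 and DESeq2 called 4, as did edgeR with the block. Of 8 tested genes of the tropinone reductase list, 0 were called at either time by edgeR, with or without the block, or by DESeq2, and 1 and 0 had an unadjusted p below 0.05. That list holds 5 tested genes with tropinone reductase as their protein name, the others entering through other annotation columns. Beside 0.995% and 0.48% of all tested genes called higher at 3 h and 6 h, 0 of 8 is not read as a result about that list. No test of the difference between families was made.

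A list of lipoxygenases, allene oxide synthases and allene oxide cyclase, which holds the enzymes that act before the oxophytodienoate reductases in jasmonate synthesis and also 9S-lipoxygenases, which make other oxylipins, had 0 of 17 genes called by edgeR with GR245DS at either time. At 3 h 3 of them had an unadjusted p below 0.05 and DESeq2 called 1, as did edgeR with the block. At 6 h 1 had an unadjusted p below 0.05, DESeq2 called 0 and the block called 1 lower. Of all tested genes 0.995% were called higher at 3 h and 0.48% at 6 h, or 634 and 380 of 24814 with the block. At such shares, counts of 0 or 1 in lists of 17 or 65 genes are not read as results about the lists. Among 65 tested genes of a list of alkenal and quinone reductases, which also act on unsaturated carbonyl compounds, 1 rose at each time (4 and 3 with the block). This was Sobic.001G543300, which had 222 ± 51.8 against 65.1 ± 12.1 CPM at 3 h (SD, n = 3; adjusted p of 0.00152, edgeR) and is listed only through its pathway name.

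**Figure D4:**
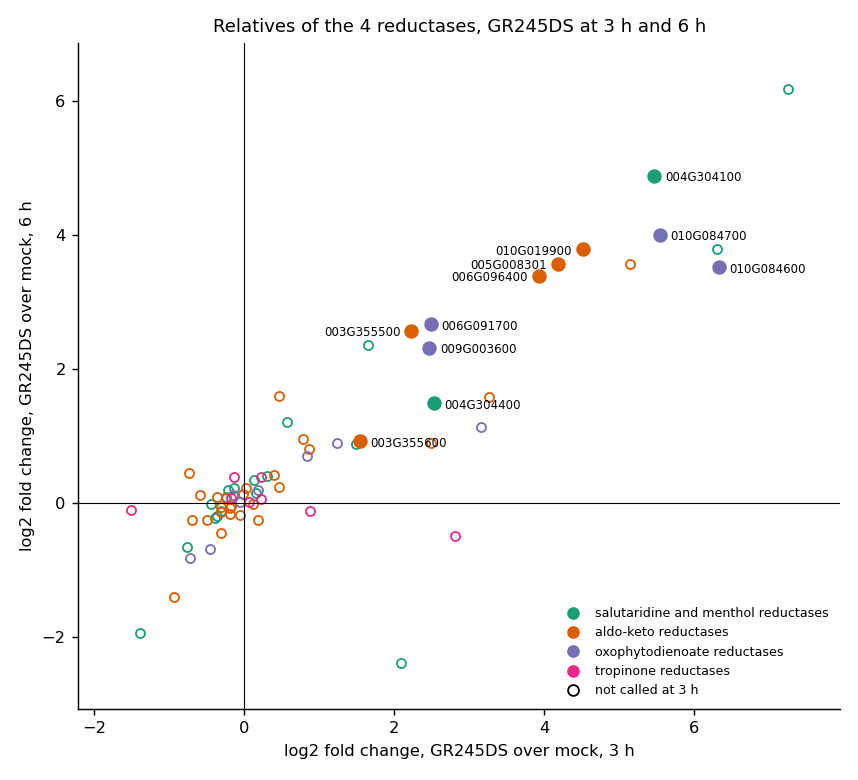
Log2 fold change of GR245DS over mock at 3 h and at 6 h for the tested relatives of the 4 reductases, coloured by family, with filled points for the 11 genes called at 3 h and open points for the rest. All 11 called genes are above 0 at both times, and most other relatives lie near 0.

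In the phosphorus experiment the relatives were expressed well enough to test, and there both directions occurred. Of 63 tested relatives 12 were higher and 20 lower with the label at day 4, and 11 higher and 23 lower at day 7, beside the 20.3% and 18.4%, and 17.4% and 18.2%, of all genes. All called genes of the oxophytodienoate reductase list were lower, 4 of 9 at day 4 and 6 of 9 at day 7, with a list median of -0.60 and -0.95 on the log2 scale. Sobic.006G091900 fell from 61.6 ± 3.62 CPM in mock to 15.8 ± 1.39 CPM at day 4 and from 64.4 ± 4.48 to 14.0 ± 2.22 CPM at day 7 (SD, n = 3; adjusted p of 1.65e-07 and 5.55e-08, edgeR). OPR7, Sobic.007G151100, fell less, from 55.9 ± 0.81 to 36.9 ± 2.47 CPM at day 4 (SD, n = 3; adjusted p of 0.000447, edgeR).

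The tropinone reductase list was likewise lower in each called gene, 6 of 8 at day 4 and 5 of 8 at day 7, or 4 of 5 at both days for genes with that protein name. Most of these calls were closely numbered genes, Sobic.005G202500, Sobic.005G202700, Sobic.005G203000 and Sobic.005G203100. Whether reads were shared among them is not known. The others were Sobic.002G111200 (log2 fold change of -0.44 and -0.47) and, at day 4 only, Sobic.005G231700 (-0.65). Sobic.005G202700 had 18.9 ± 2.28 CPM in mock and 1.71 ± 0.859 CPM with the label at day 4, and 23.3 ± 1.81 against 0.915 ± 0.246 CPM at day 7 (SD, n = 3; adjusted p of 2.73e-06 and 3.42e-07, edgeR). Sobic.005G203100 had 3.97 ± 0.157 against 0.14 ± 0.15 CPM at day 7 (SD, n = 3; adjusted p of 9.50e-05, edgeR). Root marker sums were lower there too, at 853 to 1120 CPM in mock and 405 to 526 CPM with the label at day 4, and 663 to 1030 against 396 to 500 CPM at day 7. The part of these marker levels in the lower reductase levels was not tested.

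The other lists were mixed. Of all tested genes 20.3% were higher and 18.4% lower at day 4, and 17.4% and 18.2% at day 7. Counts near those shares are not read as results about a list. Among salutaridine and menthol reductases 5 of 18 were higher and 1 lower at day 4, and 5 and 3 at day 7. The 8 calls at day 7 became 5 without mock replicate 2 or without labelled replicate 3. Sobic.006G158400 rose from 17.3 ± 3.96 to 76.4 ± 5.48 CPM at day 4 (SD, n = 3; adjusted p of 6.19e-07, edgeR), and Sobic.006G158600 from 0.291 ± 0.0899 to 5.98 ± 2.06 CPM (adjusted p of 1.08e-05, edgeR). Aldo-keto reductases had 7 of 28 higher and 9 lower at day 4, and 6 and 9 at day 7. The lipoxygenase and allene oxide genes had 5 of 17 higher and 3 lower at day 4, and 6 and 5 at day 7, led by the 9S-lipoxygenase Sobic.003G385500 at 280 ± 128 against 29.7 ± 2.30 CPM at day 4 (SD, n = 3; adjusted p of 2.49e-06, edgeR) and by another 9S-lipoxygenase, Sobic.003G385900. Alkenal and quinone reductases had 10 of 61 higher and 17 lower at day 4, and 9 and 21 at day 7, with Sobic.001G194900, named electron transfer flavoprotein-ubiquinone oxidoreductase, among the higher and Sobic.010G184500, named NADP-dependent alkenal double bond reductase P2, among the lower at day 7, at 0.452 ± 0.183 against 12.8 ± 4.78 CPM (SD, n = 3; adjusted p of 1.89e-07, edgeR).

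Relatives that rose with GR245DS were also looked up in roots labelled phosphorus deficiency. Of the 11 genes called at 3 h, 6 were lower, 1 was higher, 3 were not called and 1 was not tested at day 4, beside 20 lower of all 63 tested relatives. At day 7 the counts were the same, beside 23 lower of 63. Sobic.010G019900 fell from 111 ± 2.75 CPM in mock to 21.5 ± 4.86 CPM at day 4 and from 110 ± 2.69 to 18.1 ± 2.40 CPM at day 7 (SD, n = 3; adjusted p of 1.70e-07 and 6.75e-08, edgeR). Sobic.006G096400, which rose 15.3-fold with GR245DS at 3 h, fell from 72.1 ± 2.32 to 15.2 ± 2.27 CPM at day 4 (SD, n = 3; adjusted p of 5.80e-08, edgeR). Sobic.006G091700 had 1.57 ± 0.302 against 6.59 ± 0.779 CPM in mock at day 4 (SD, n = 3; adjusted p of 0.000162, edgeR). The others that were lower at day 4 were Sobic.003G355500 (a call lost without mock replicate 1, adjusted p of 0.0516, edgeR), Sobic.003G355600 and Sobic.009G003600. The gene that was higher, Sobic.004G304100, had a log2 fold change of 1.56 (adjusted p of 0.00628, edgeR) at levels of 0.654 CPM in mock and 1.92 CPM with the label at day 4. Its day 7 call (adjusted p of 0.0348, edgeR) was lost without mock replicate 2 or 3 or labelled replicate 1 or 3, with adjusted p of 0.0546 to 0.134 by edgeR. The 2 experiments differ in time, treatment and mock libraries, and the overlap itself was not tested.

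**Figure D5:**
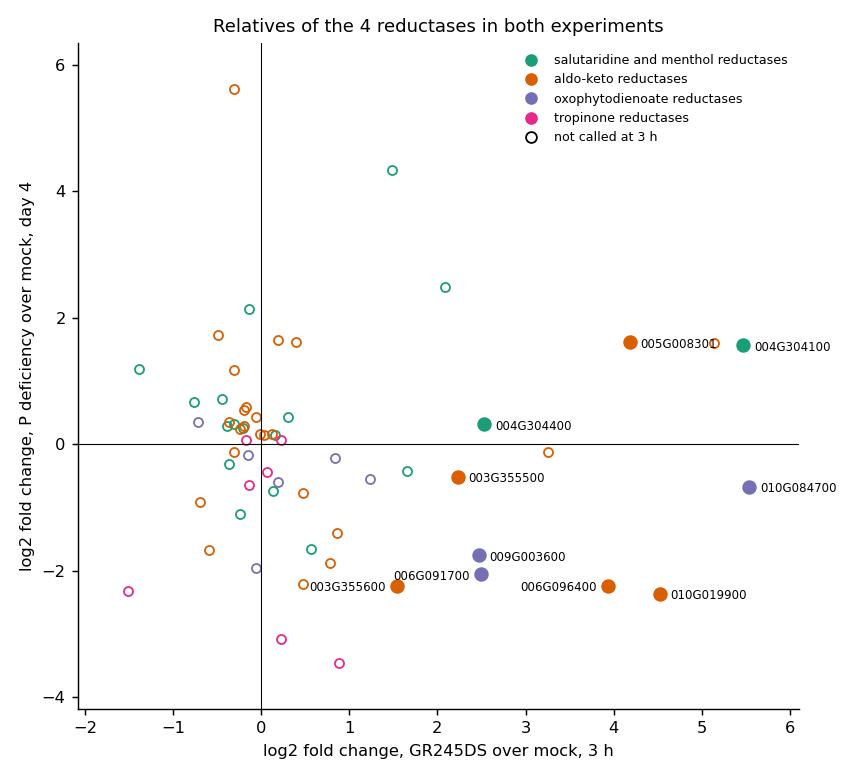
Log2 fold change of GR245DS over mock at 3 h against log2 fold change of the label phosphorus deficiency over mock at day 4, for relatives of the 4 reductases tested in both experiments. Filled points are genes called with GR245DS at 3 h, of which 6 were called lower and 1 (Sobic.004G304100) higher at day 4, and the 4 reductases themselves are not shown because they were not tested in the phosphorus experiment.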

How the data were processed

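The deposited data hold, per the file headers, raw counts and the authors' FPKM per gene and library, and the authors' own log2 fold changes and adjusted p-values per comparison. The submitters' processing notes list fastp, HISAT2 and featureCounts, with DESeq2 1.22.1. No source used here gives the genome build, the strandedness or the handling of multiply matching reads. In both count tables the value 1 was rarer than 2 (1852 against 7504 values in the GR245DS table, 2007 against 8277 in the other), so a count may not stand for 1 independent fragment. Per the labels' protocols, mRNA libraries were made from total RNA of roots.

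Each experiment (12 libraries) was fitted on all its genes with edgeR 4.0.16 in R 4.3.3 (quasi-likelihood, robust, TMM, filterByExpr, 1 mean per group), which tested 24814 genes for GR245DS and 25137 for phosphorus. Benjamini-Hochberg adjustment ran over all genes, with a threshold of 0.05. CPM are edgeR's with TMM factors. The fits were also run on counts simulated as independent libraries, for the first comparison of each experiment. Those counts held no deviation shared by libraries of the same replicate number, so the runs cannot speak to its effect. DESeq2 1.42.0 was an alternative. The tests planned for the 4 genes in the phosphorus experiment could not be made with the filter, since none of the genes passed it. The members and lists were chosen with earlier results of these data known. Lists were read from words in the deposited gene names, and the pathway and domain columns brought in some unrelated genes, so counts from protein names alone were an alternative. Named relatives are, per list and treatment comparison, the 2 with the smallest adjusted p past the threshold whose higher group averages 1 CPM or more, and the 3 genes most like each member. Symbols of 25656 of 25827 genes with one were found in RefSeq.

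Libraries of the GR245DS experiment with the same replicate number deviated together (correlations of 0.136 to 0.838 in 18 of 18 pairs), so blocked values are given for some genes. At 6 h the block also called Sobic.004G304400, Sobic.004G304000 and Sobic.010G084300. Their adjusted p were 0.00924, 0.0332 and 0.0449 by edgeR with the block, and 0.318, 0.33 and 0.741 without it. Neighbours called at 3 h had adjusted p of 0.000624 to 0.00598 by edgeR with the block. Fits that left out a single library had no block. In the phosphorus experiment they did not (-0.503 to 0.644).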

Additional observations from a re-analysis of the deposited data

Results flagged for a closer look

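Sobic.002G368500, an uncharacterized gene listed among the alkenal and quinone reductases only through its protein-domain name (a subunit of NADH-ubiquinone reductase), responded differently at the 2 days of the phosphorus experiment. At day 4 it had 35.4 ± 19.3 CPM in mock and 0.0170 ± 0.0295 CPM with the label phosphorus deficiency (SD, n = 3). At day 7 it had 159 ± 16.9 and 61.7 ± 23.6 CPM. The difference between the responses was 9.41 on the log2 scale (adjusted p of 0.000519 by edgeR's quasi-likelihood test, and 0.00364 with the replicate number as a block). The day 4 value with the label rests on 2 counts in 1 library, so its fitted size depends on the prior count.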

How the results depend on the processing

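The direction of the ratio of GR245DS to mock was the same for the 4 genes under every scaling, with FPKM and without any library. Leaving out each library in turn gave ratios at 3 h of 213 to 961 for Sobic.004G304300, 111 to 366 for Sobic.010G117900, 114 to 346 for Sobic.010G084400 and 121 to 454 for Sobic.005G055300. These ranges leave out the cases where the remaining mock libraries had 0 counts. There, taking 3 counts as a rough limit, the ratio was at least 419 for Sobic.004G304300 (without mock replicate 2) and at least 570 for Sobic.005G055300 (without mock replicate 1). At 6 h the ranges were 191 to 556, 45 to 168, 28.9 to 62.2 and 63.8 to 139. In the phosphorus experiment the 4 genes were testable only without the filter, where 0 were called, also with the replicate block (adjusted p of 0.605 to 1 by edgeR, a combination chosen after seeing the data). Their counts there were too low for a difference to be detected.

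The number of relatives called with GR245DS at 3 h was 5 when only the groups compared were fitted, and 4 to 12 when a library was left out. At 6 h it was 13 with DESeq2, 15 with the replicate block and 1 to 5 when a library was left out. The cause was not tested. In the phosphorus comparisons the count over the 4 families together was 28 to 34 at day 4 and 27 to 35 at day 7 under the alternatives run. The salutaridine and menthol reductases moved more, from 8 to 5 calls at day 7 without mock replicate 2 or labelled replicate 3. By protein names alone, 14 and 18 of 29 tested alkenal and quinone reductases were called at days 4 and 7. The full list had 61 tested genes, so these counts cannot be set directly against its own. Over all genes, the block raised the GR245DS calls from 250 to 777 at 3 h and from 120 to 509 at 6 h. DESeq2 gave 604 and 335, and fitting only the groups compared gave 100 and 82. Leaving out a library of the comparison gave 122 to 304 calls at 3 h and 52 to 90 at 6 h. Library totals alone shifted the median log2 fold change at 3 h to -0.151 and the calls there to 177 higher and 18 lower. In the phosphorus experiment the numbers did not pair the libraries, and the block gave 9305 calls at day 4 against 9713, and 3 higher salutaridine and menthol reductases at day 7 against 5. Ratios to mock rest on 6 to 130 mock counts per group, which limits their precision.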
